A study of Mus musculus with 6 samples.

Results

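Phospholipases A2 release arachidonic acid from membrane lipids, and cyclooxygenases and prostaglandin synthases turn it into prostaglandins. The 10 genes described here were 5 cytosolic phospholipases A2 (Pla2g4a, Pla2g4b, Pla2g4d, Pla2g4e and Pla2g4f), 2 secreted ones (Pla2g2e and Pla2g2f), the cyclooxygenase genes Ptgs1 and Ptgs2, and Ptges, the gene of the inducible prostaglandin E synthase. They were selected on their measured LynDN to WT log ratios, since the list was drawn up with results of this same comparison known, and these ratios are therefore given as a description and without a test. A gene was measured where at least 1 probe carried its symbol alone in the platform annotation, which held for 9 of the 10 genes and of 18617 named genes in all. Ptgs1 had no such probe and is not analysed here.

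The study compared skin of 3 LynDN mice with skin of 3 wild-type (WT) mice on 2-colour arrays. LynDN, also written LynDeltaN, is a form of the Src-type kinase Lyn without its N-terminal part. Each LynDN mouse was hybridised together with 1 WT mouse on 2 arrays with exchanged dyes, and these pairs were LynDN 1 with WT 1 (pair 1), LynDN 2 with WT 3 (pair 2) and LynDN 3 with WT 2 (pair 3). No source used here says how LynDN was introduced or what drives it, or gives the strain, age or sex of the mice, or the body site of the skin. Each value is the deposited log ratio of the channels, read in base 2, and a pair value is the mean of both arrays of a pair. The table held ratios and no signal levels, so neither the level of a gene nor the presence of skin markers could be checked.

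The numerator of the ratios is not stated, and signs are given as deposited. The alarmin genes S100a8 and S100a9 had pair values from 4.47 to 5.65, positive in all pairs. Mice carrying LynDN are known for inflamed, psoriasis-like skin, and alarmins are known to be abundant in such skin. On that background a positive ratio would mean more RNA in LynDN than in WT skin, but no label settles it, and all signs would turn together if WT were the numerator. Over all probes the arrays of a dye swap correlated at r = 0.442 in pair 2, 0.435 in pair 3 and 0.004 in pair 1. Arrays of the same dye orientation but different pairs correlated at 0.349 to 0.628. Pair 1 also differed in sex-linked genes: Eif2s3y, a Y-linked gene, had 3.50 there, against 0.00 and 0.03 in pairs 2 and 3. Kdm5d, also Y-linked, had 1.24, against -0.05 and 0.13, and Xist had -1.06, against -0.09 and -0.14. No label gives the sex, and in pair 1 a difference of sex cannot be told apart from one of LynDN. Results that rest on pair 1 are therefore given with and without it.

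In epidermis, cytosolic phospholipases A2 act inside the cell and need calcium to reach membranes, whereas secreted ones act outside it on lipids of the cornified layer and on other cells. Ptgs1 and Ptgs2 make prostaglandin H, the common precursor, and Ptges converts it to prostaglandin E, which acts on the Ptger receptors. Ptgs2 and Ptges are known as inducible by inflammatory signals. Pla2g4d was described in psoriatic epidermis of humans.

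The promoters of the 3 genes with the largest mean ratios are shown together with those of Pla2g4f, the adjacent gene with a small ratio, and of Ptgs2, which supplies the substrate of Ptges. Each runs 5′ to 3′ from 250 bases before to 50 bases after the annotated start and was taken from RefSeq (GRCm38.p6). Capitals mark matches, on either strand, to 5 motifs. The NF-kB motif was GGG and CC with any 5 bases in between. The AP-1 motif was TGANTCA. The C/EBP motif was TTNNGCAA. The STAT motif was TTCNNNGAA. The TATA motif was TATAAA.
Pla2g4e (chr2:120245286-120245585, minus strand): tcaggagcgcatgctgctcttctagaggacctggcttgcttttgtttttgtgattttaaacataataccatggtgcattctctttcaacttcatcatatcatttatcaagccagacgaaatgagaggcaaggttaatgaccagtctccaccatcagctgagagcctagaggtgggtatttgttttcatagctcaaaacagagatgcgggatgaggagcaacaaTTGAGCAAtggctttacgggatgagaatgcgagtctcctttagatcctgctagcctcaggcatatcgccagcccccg
Pla2g4d (chr2:120289020-120289319, minus strand): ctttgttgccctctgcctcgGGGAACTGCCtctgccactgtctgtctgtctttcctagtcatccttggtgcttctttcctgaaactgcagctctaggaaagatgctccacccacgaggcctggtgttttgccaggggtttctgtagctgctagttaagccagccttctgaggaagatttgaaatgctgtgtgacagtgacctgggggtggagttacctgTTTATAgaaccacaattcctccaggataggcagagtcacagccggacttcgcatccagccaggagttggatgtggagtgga
Pla2g4f (chr2:120314116-120314415, minus strand): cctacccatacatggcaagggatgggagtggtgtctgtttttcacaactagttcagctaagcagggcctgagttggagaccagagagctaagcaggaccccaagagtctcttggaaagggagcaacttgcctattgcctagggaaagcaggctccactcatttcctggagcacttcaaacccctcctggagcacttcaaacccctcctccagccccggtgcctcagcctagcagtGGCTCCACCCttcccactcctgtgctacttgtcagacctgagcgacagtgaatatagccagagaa
Ptges (chr2:30903248-30903547, minus strand): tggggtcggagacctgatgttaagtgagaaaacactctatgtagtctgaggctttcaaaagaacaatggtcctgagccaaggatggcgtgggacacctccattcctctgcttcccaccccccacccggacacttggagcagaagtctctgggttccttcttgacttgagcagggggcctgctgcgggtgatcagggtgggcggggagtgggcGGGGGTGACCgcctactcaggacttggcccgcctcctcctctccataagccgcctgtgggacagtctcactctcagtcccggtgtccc
Ptgs2 (chr1:150099781-150100080, plus strand): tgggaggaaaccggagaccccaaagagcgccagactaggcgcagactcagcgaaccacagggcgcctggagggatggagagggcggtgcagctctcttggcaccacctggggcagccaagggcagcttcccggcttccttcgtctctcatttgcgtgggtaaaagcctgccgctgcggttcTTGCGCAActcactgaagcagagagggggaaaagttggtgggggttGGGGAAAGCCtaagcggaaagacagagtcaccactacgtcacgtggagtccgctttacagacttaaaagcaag
No pair of matches overlapped in these windows. The Pla2g4e window held a C/EBP match at -27 and the Pla2g4d window an NF-kB match at -230 and a TATA match at -31, so the 2 genes with the largest ratios shared none of these motifs. Ptgs2 had an NF-kB match at -23 and a C/EBP match at -69, Ptges an NF-kB match at -38 and Pla2g4f one at -15. The promoter table held 9 of the 10 genes, Ptgs1 included and Pla2g4b not. Of these, 6 held an NF-kB match, 2 a C/EBP match, 1 a TATA match, 1 an AP-1 match and 0 a STAT match. Among all 32851 promoter windows of this length 50.8% held an NF-kB match, 10.8% a C/EBP match, 13.6% a TATA match, 7.81% an AP-1 match and 8.3% a STAT match. A match describes letters and not a bound site.

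Among the cytosolic phospholipases A2, Pla2g4e and Pla2g4d stood at the top with ratios of more than 2-fold, Pla2g4f and Pla2g4a lay near 0, and the probes of Pla2g4b disagreed. Pla2g4e encodes an enzyme known as a calcium-dependent N-acyltransferase, which makes precursors of N-acylethanolamines. The log2 ratio read 0.50 and 0.37 for pair 1, 2.20 and 1.88 for pair 2 and 2.05 and 1.91 for pair 3, the array with LynDN in Cy3 coming first each time. All 6 values were positive, and the 4 values of pairs 2 and 3 did not overlap those of pair 1. The mean was 1.48 ± 0.91 (SD, n = 3 pairs), or 2.80-fold, and without pair 1 it was 2.01, or 4.02-fold. As in all bulk samples, more cells of a type and more RNA per cell cannot be told apart.

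Pla2g4d had 0.56 and 0.20 for pair 1, 1.90 and 2.19 for pair 2 and 1.74 and 1.62 for pair 3. It too was positive on 6 of 6 arrays and low in pair 1 alone. The mean was 1.37 ± 0.88 (SD, n = 3), or 2.58-fold, and 1.86 without pair 1, or 3.64-fold. Pla2g4e exceeded Pla2g4d by 0.11 ± 0.16 (SD, n = 3), less than the spread between pairs, and the difference was -0.01 in pair 2. Counted from the most positive mean, Pla2g4e ranked 61 and Pla2g4d 71 of 22879 rows, and the same ranks would count from the most negative end if the sign were turned.

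Pair 1 was also lower in other rows of large ratio. Among 194 rows whose mean over pairs 2 and 3 was at least 1, the median value was 0.33 in pair 1 against 1.47 over pairs 2 and 3, a choice of rows that in part fixes this order. Among 119 rows chosen on the mean of all 3 pairs, again at least 1, pair 1 was the lower in 114. Of 56 rows chosen on a pair 1 value of at least 1, which favours the opposite order, pair 1 was still the lower in 34. In pair 1, Pla2g4e reached 21.6% and Pla2g4d 20.3% of their log2 ratio in pairs 2 and 3, against a median of 23.3% over the 194 rows.

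**Figure D1:**
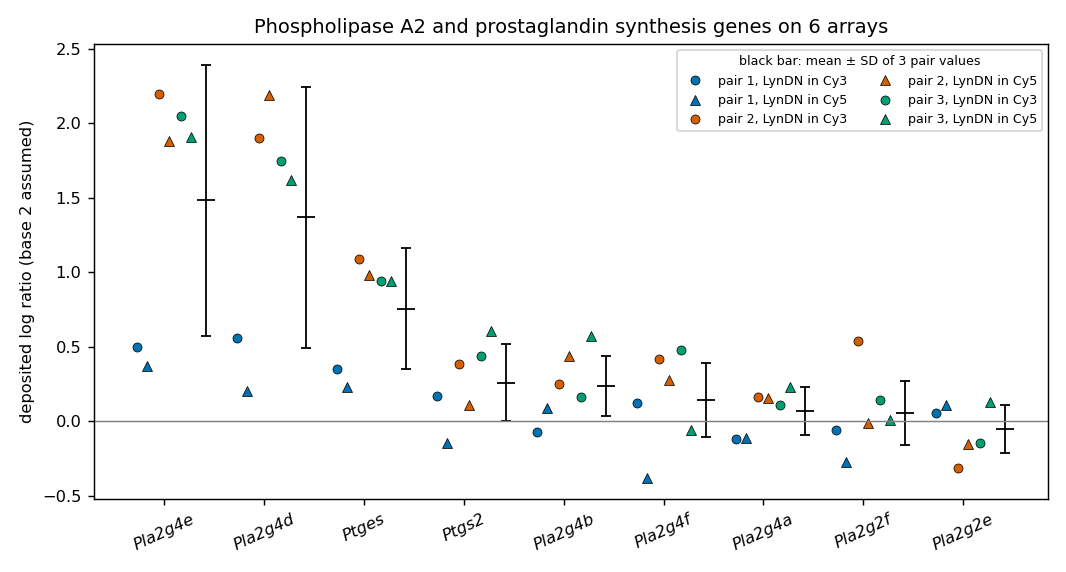
Deposited log ratio (y axis, base 2 assumed) of the 9 measured genes on each of 6 arrays, with circles for LynDN in Cy3, triangles for LynDN in Cy5 and 1 colour per mouse pair. Black bars give the mean ± SD of 3 pair values; Pla2g4e, Pla2g4d and Ptges are positive on all arrays, with pair 1 lowest in each.

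Pla2g4b, the beta enzyme, was measured by 2 probes that disagreed. The probe with the higher ratios had 0.08 and 0.16 for pair 1, 0.78 and 0.94 for pair 2 and 0.60 and 1.09 for pair 3, a mean of 0.61 ± 0.42 (SD, n = 3). The other probe had -0.23 and 0.01 for pair 1, -0.29 and -0.08 for pair 2 and -0.28 and 0.05 for pair 3, a mean of -0.13 ± 0.04 (SD, n = 3). Both probes were higher on the array with LynDN in Cy5 in each pair. The difference between probes was 0.23, 1.05 and 0.96 in pairs 1, 2 and 3, and it was positive in 3 of 3 pairs. The gene value of 0.24 ± 0.20 (SD, n = 3), their average, therefore stands for neither probe. The probe sequences were not used here, and which transcript each probe reads was not tested.

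**Figure D2:**
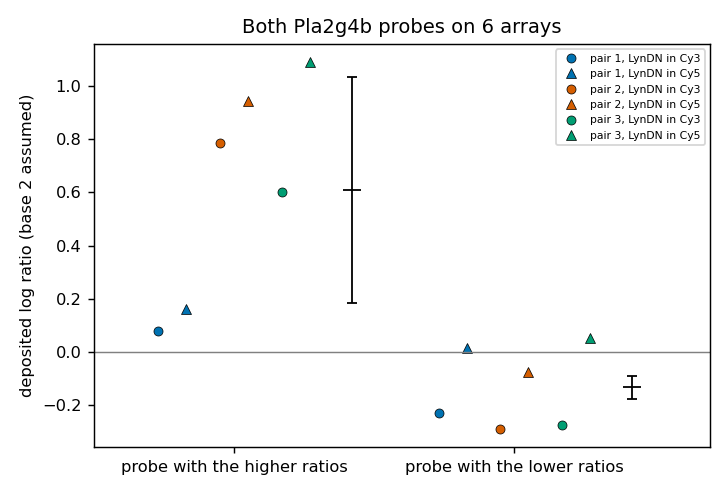
Deposited log ratio (y axis, base 2 assumed) of both Pla2g4b probes on 6 arrays, with symbols as in the plot of all genes and black bars for the mean ± SD of 3 pair values. The probe with the higher ratios lies between 0.08 and 1.09 and the other between -0.29 and 0.05.

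Pla2g4f, the zeta enzyme, had 0.12 and -0.38 for pair 1, 0.42 and 0.28 for pair 2 and 0.48 and -0.06 for pair 3. Its values followed the dye, since each was higher on the array with LynDN in Cy3, and the mean was 0.14 ± 0.25 (SD, n = 3). Pla2g4a, the arachidonate-selective alpha enzyme that is the best-known source of arachidonate for prostaglandins, had -0.12 and -0.11 for pair 1, 0.16 and 0.16 for pair 2 and 0.11 and 0.23 for pair 3. With a mean of 0.07 ± 0.16 (SD, n = 3), it did not exceed the spread between pairs. Neither gene had 1 sign in all pairs.

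Pla2g4e, Pla2g4d and Pla2g4f are adjacent in this order on mouse chromosome 2, and Pla2g4b lies nearby with Sptbn5 and Ehd4 in between. The genes on either side of Pla2g4e and Pla2g4d had small ratios. Of 8 other protein-coding genes, those in between and the nearest 3 on each side, 6 were measured, and their means ran from -0.08 for Tmem87a to 0.31 for Vps39. Ehd4, next to Pla2g4e, had 0.02, 0.22 and 0.35 in pairs 1, 2 and 3, a mean of 0.20 ± 0.17 (SD, n = 3). The neighbours were chosen after the ratios were seen.

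**Figure D3:**
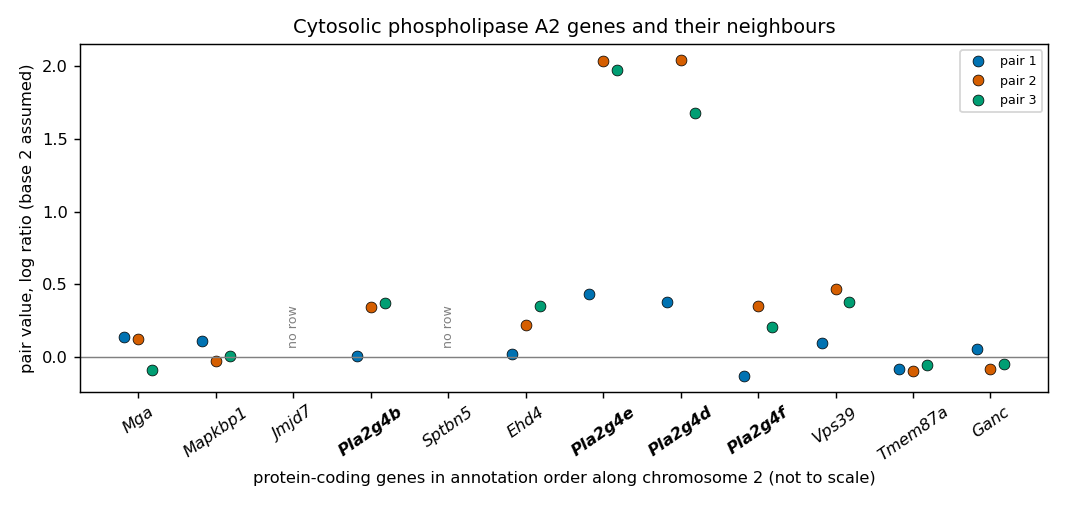
Pair values (y axis, log ratio, base 2 assumed) of the cytosolic phospholipase A2 genes in bold and of neighbouring protein-coding genes, in annotation order along chromosome 2 and not to scale. Pla2g4e and Pla2g4d reach 2.04 and 2.05, whereas the highest pair value among the other measured genes of the stretch is 0.46, for Vps39.

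The secreted phospholipases A2 had small ratios of mixed sign. Pla2g2f, known in mice as the secreted enzyme of suprabasal epidermis, had -0.06 and -0.28 for pair 1, 0.54 and -0.01 for pair 2 and 0.14 and 0.00 for pair 3. Its mean of 0.06 ± 0.22 (SD, n = 3) was below the spread between pairs, and each pair was higher on the array with LynDN in Cy3. Pla2g2e, known in mouse hair follicles, had 0.05 and 0.11 for pair 1, -0.31 and -0.15 for pair 2 and -0.15 and 0.13 for pair 3, a mean of -0.05 ± 0.16 (SD, n = 3). Each pair was higher on the array with LynDN in Cy5 for Pla2g2e. Of the relatives of both genes in the same cluster on chromosome 4, Pla2g2d had 0.33 ± 0.08 (SD, n = 3) and was positive on 6 of 6 arrays, Pla2g2c had 0.11 ± 0.05 and Pla2g5 -0.01 ± 0.08.

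In prostaglandin synthesis, Ptges had the third-largest ratio of the 9 genes. Its log2 ratio was 0.35 and 0.23 for pair 1, 1.09 and 0.98 for pair 2 and 0.94 and 0.94 for pair 3. All arrays were positive, and pairs 2 and 3 lay above pair 1. The mean was 0.75 ± 0.41 (SD, n = 3), or 1.69-fold, rank 191 counted the same way, and it was 0.99 without pair 1. The Ptges probe lies in the last part of the table, from row 21000 on, where values carry at most 3 significant digits.

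Ptgs2, the inducible cyclooxygenase, had 0.16 and -0.15 for pair 1, 0.39 and 0.11 for pair 2 and 0.44 and 0.60 for pair 3. Pairs 2 and 3 were positive on all arrays and pair 1 was near 0, at 0.01. The mean was 0.26 ± 0.26 (SD, n = 3), about equal to the spread between pairs, and 0.38 without pair 1. Ptges exceeded Ptgs2 by 0.50 ± 0.26 (SD, n = 3) and in 3 of 3 pairs.

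In the order of mean ratios, Pla2g4e, Pla2g4d, Ptges, Ptgs2, Pla2g4b, Pla2g4f, Pla2g4a, Pla2g2f and Pla2g2e, only the steps from Pla2g4d to Ptges (0.61 ± 0.47) and from Ptges to Ptgs2 (SD, n = 3) had 1 sign in all pairs. The other 6 steps changed sign between pairs. The median of the 9 genes was 0.24, made up of 0.01, 0.34 and 0.37 in pairs 1, 2 and 3, beside -0.01 over all rows. Ratios of at least 1 were reached by 2 of 9 genes, beside 0.52% of all rows, ratios of -1 or less by 0, beside 0.0787%, and 3 of 9 were positive on 6 of 6 arrays, beside 3.72% of rows positive and 4.31% negative on all of them. The genes were chosen with this contrast known, so nothing is read from these shares.

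**Figure D4:**
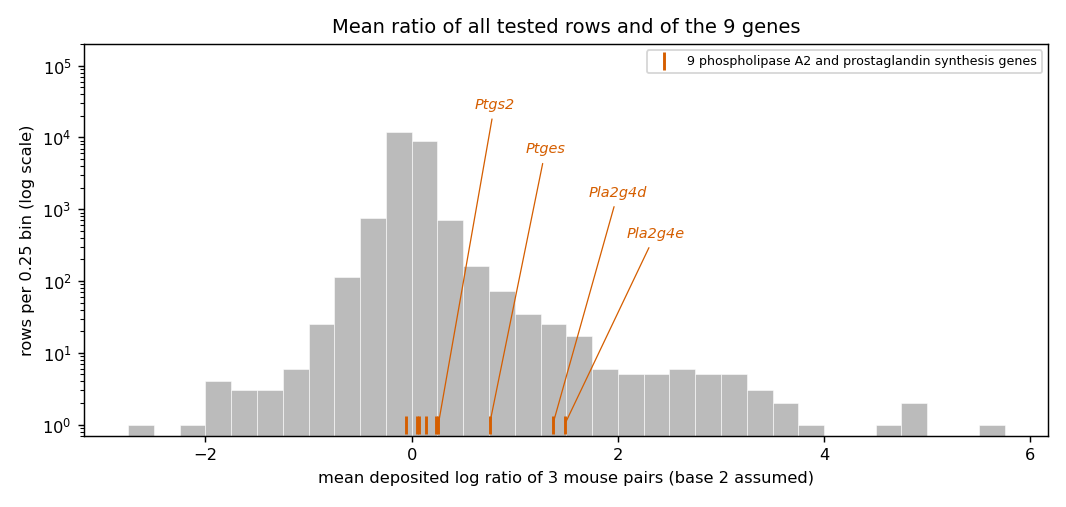
Number of rows (y axis, log scale) by mean deposited log ratio of 3 mouse pairs (x axis, base 2 assumed, bins of 0.25), with orange ticks for the 9 genes. Pla2g4e at 1.48 and Pla2g4d at 1.37 lie in the right tail, and most of the other genes lie in the bulk around 0.

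The genes whose ratios were most like those of the leading members were found by the root mean square difference over the 6 arrays. For Pla2g4e these were 4933433N18Rik (0.146), the kallikrein protease gene Klk6 (0.184) and Map6 (0.188), with mean ratios of 1.59, 1.48 and 1.42. For Pla2g4d they were Clec7a (0.176), the beta-glucan receptor of myeloid cells, Teddm3 (0.188) and Fbxw19 (0.243). Pla2g4d lay at 0.254 from Pla2g4e, and for each of these genes 4 of 18608 other named genes were nearer to it than its relative. The genes nearest to Ptges were Pde12 (0.109), Duox1 (0.115), an epithelial oxidase gene, and Galnt6 (0.12), whereas 631 named genes were nearer to it than Ptgs2, at 0.548. These distances join size and pattern and carry no test.

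Further genes of eicosanoid biology were taken from 6 lists, and 56 of 59 listed genes were measured. At an adjusted p under 0.05, limma on the pair values called 0 of the 56 genes, beside 4 rows or 0.0175% of all rows. An unadjusted p under 0.05 was found for 9 positive and 4 negative genes of the 56, beside 5.92% and 6.41% of all rows. The median of the 56 genes was 0.05, beside -0.01 over all rows. A fit over all 6 arrays with a dye term and the pair as random block called 0 positive genes and 1 negative, beside 1.06% of all rows (0.603% positive and 0.459% negative). Without pair 1, 6 genes were called positive and 3 negative, beside 4.88% of all rows (3.22% positive and 1.67% negative).

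Among other prostanoid synthases, 1 of 9 genes had a ratio of at least 1, beside 0.52% of all rows. Hpgds, the prostaglandin D synthase of mast cells and other blood-derived cells, had 0.14 and 0.30 for pair 1, 1.47 and 1.62 for pair 2 and 1.26 and 1.46 for pair 3. It was positive on 6 of 6 arrays with a mean of 1.04 ± 0.72 (SD, n = 3), and did not pass in limma (adjusted p = 0.297), but passed without pair 1 (adjusted p = 0.00192, mean 1.45). Ptgds, the lipocalin-type prostaglandin D synthase, had pair values of 0.26, -0.50 and -0.43 and a mean of -0.23 ± 0.42 (SD, n = 3). It did not pass in limma (adjusted p = 0.612) and passed as negative without pair 1 (adjusted p = 0.0266). Prxl2b, a prostaglandin F synthase, had -0.39 ± 0.20 (SD, n = 3) and was negative on 5 of 6 arrays. Its size followed the dye, with means of -0.155 for LynDN in Cy3 and -0.634 for LynDN in Cy5.

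Of 9 prostanoid receptors, 0 passed, beside 0.0175% of all rows, and Ptger1, a prostaglandin E receptor, had the largest ratio. It had pair values of 0.12, 0.68 and 0.48 and a mean of 0.43 ± 0.28 (SD, n = 3; limma adjusted p = 0.307), and was called without pair 1 (adjusted p = 0.0251). Ptger2, Ptger3 and Ptger4, the other receptors of prostaglandin E, lay at 0.18 ± 0.19, -0.06 ± 0.29 and -0.08 ± 0.13 (SD, n = 3). Ptgfr, the prostaglandin F receptor, had a mean of -0.09 ± 0.30 (SD, n = 3).

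Among the 6 genes of prostaglandin transport and breakdown, Ptgr1 had the largest ratio and was negative. Ptgr1 encodes a reductase that inactivates oxidised prostaglandins and leukotriene B. It had -0.55 and -0.31 for pair 1, -0.47 and -0.71 for pair 2 and -0.50 and -0.77 for pair 3, so that pair 1 was close to the others, with a mean of -0.55 ± 0.11 (SD, n = 3). It did not pass in limma on the pair values (adjusted p = 0.182), and passed in the fit over 6 arrays with a dye term and random block (adjusted p = 0.0255) and without pair 1 (adjusted p = 0.0131). Hpgd, the dehydrogenase that begins prostaglandin breakdown, and the uptake carrier Slco2a1 had 0.04 ± 0.04 and 0.02 ± 0.01 (SD, n = 3). The exporter Abcc4 had 0.20 ± 0.13 and Ptgfrn, a regulator of the prostaglandin F receptor, 0.09 ± 0.14. Both followed the dye, with means of -0.02 and 0.27 for LynDN in Cy3 and of 0.43 and -0.08 for LynDN in Cy5.

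In the leukotriene branch, without the lipoxygenases, 0 of 7 genes passed on 3 pairs, beside 0.0175% of all rows. Without pair 1, 2 of the 7 passed, beside 4.88% of all rows. Ltb4r1, the high-affinity leukotriene B receptor of leukocytes, had 0.14 in pair 1, a mean of 1.07 over pairs 2 and 3 and an overall mean of 0.76 ± 0.55 (SD, n = 3; limma adjusted p = 0.307, and 0.00385 without pair 1). Alox5ap, which presents arachidonate to the leukotriene-forming lipoxygenase, had -0.04, 0.93 and 1.03 and a mean of 0.64 ± 0.59 (SD, n = 3; limma adjusted p = 0.372, and 0.00399 without pair 1). Ltc4s, which makes leukotriene C, had 0.13 ± 0.14.

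The 14 measured genes of other phospholipases A2, with the receptor gene Pla2r1 among them, lay between -0.24 and 0.33. Of these, 0 passed, beside 0.0175% of all rows. Apart from Pla2g2d, the largest were Pla2g7, the hydrolase of platelet-activating factor, at 0.25 ± 0.16, and Plaat3, an adipose phospholipase, at -0.24 ± 0.26 (SD, n = 3). Without pair 1, Pla2g2d passed as positive (limma adjusted p = 0.0413) and Plaat3 as negative (adjusted p = 0.038). Of 11 genes of arachidonate reacylation and other release, 0 passed, beside 0.0175% of all rows. Plcd1, a phospholipase C of epidermis, had the largest ratio at 0.34 ± 0.27 (limma adjusted p = 0.35, and 0.0357 without pair 1). Mboat1 and Napepld had 0.15 ± 0.04 and -0.14 ± 0.05. The sign of Mboat1 followed the dye, with means of -0.08 for LynDN in Cy3 and 0.38 for LynDN in Cy5.

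**Figure D5:**
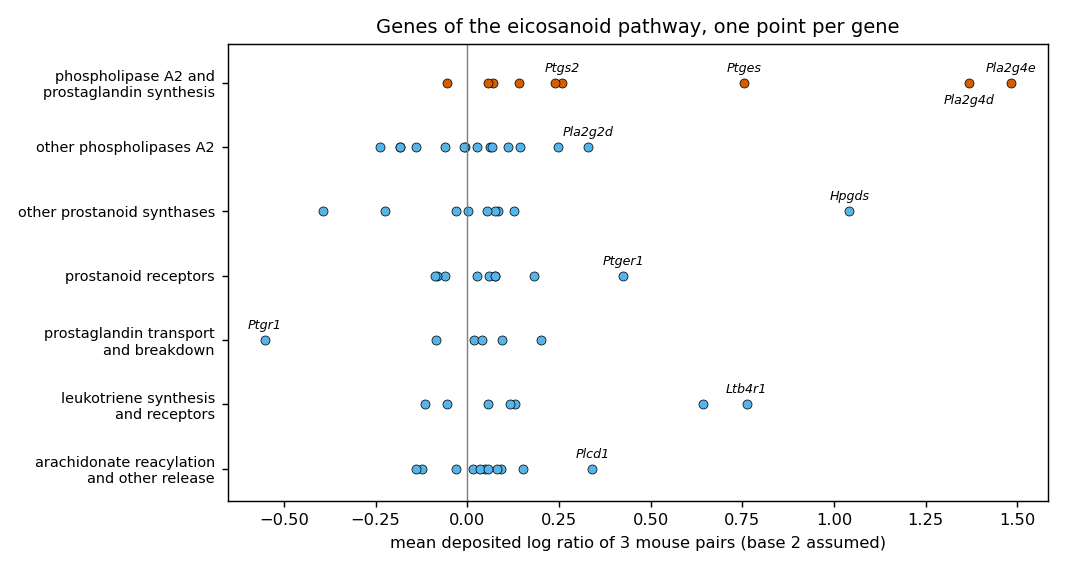
Mean deposited log ratio of 3 mouse pairs (x axis, base 2 assumed) of the 9 genes in orange and of 56 further eicosanoid genes in blue, 1 point per gene and 1 line per list, with the leading genes named. Outside the 9 genes, Hpgds at 1.04 and Ltb4r1 at 0.76 lie farthest right and Ptgr1 at -0.55 farthest left.

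Markers of skin and blood cell types are given beside these ratios. Limma on the pair values called 3 markers of stressed epidermis and 0 of the other marker lists, beside 0.0175% of all rows. The following values are therefore descriptions. All 6 measured markers of stressed epidermis were positive, with list medians of 3.17, 4.31 and 4.53 in pairs 1, 2 and 3, and all 6 basal keratinocyte markers, with 0.23, 0.57 and 0.48. All 7 suprabasal keratinocyte markers were negative, with -0.32, -0.72 and -1.23. The 7 macrophage and monocyte markers had positive means, with medians of -0.11, 0.48 and 0.81 by pair, as did the 7 neutrophil markers with 0.04, 0.52 and 0.44 and 5 of 6 mast cell markers with -0.10, 0.59 and 0.59. Like Pla2g4d, Pla2g4e, Ptges, Hpgds, Alox5ap and Ltb4r1, the medians of stressed epidermis, basal keratinocytes and these 3 blood cell lists were lowest in pair 1. Low values in pair 1 were general, since it lay below pairs 2 and 3 in 114 of 119 rows with a mean of at least 1. In pair 1 the macrophage and mast cell medians were negative, and the neutrophil markers ran from -0.308 to 0.405. Pla2g4d, Pla2g4e and Ptges had 0.38, 0.43 and 0.29 in pair 1, and S100a9 was highest there, at 5.65. Hair follicle markers (6 of 6 negative) had medians of 0.03, -1.02 and -0.55 by pair and skeletal muscle markers (5 of 5 negative) -0.01, -0.58 and -0.69, and adipocyte markers had means between -0.55 and 0.15. Endothelial, fibroblast and sebaceous gland markers had means between -0.23 and 0.32. The part of cell composition in the ratios of the 9 genes was not tested.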

How the data were processed

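Total RNA of mouse skin was extracted with Qiagen and labelled with Ambion reagents, per the labels' protocols. The authors deposited 1 log2 ratio per probe and array (25344 probes, 6 arrays, 0 missing values), where base 2 is assumed, and no source used here gives the background correction or normalization. Array means were 0 to within rounding and array medians lay between -0.017 and 0.001; neither the method of centring nor the numerator is stated. The number of arrays limits the precision.

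Of all probes, 21082 had 1 gene symbol in the platform annotation, 30 had several and 4232 had no entry. Probes of a symbol were averaged per array, which left 22879 rows. The pairing comes from the mouse numbers in the labels, and each pair's arrays were averaged to 3 pair values. In R 4.3.3, limma 3.58.1 (lmFit and eBayes) then tested their mean against 0, with Benjamini-Hochberg adjustment over all rows. p-values of this test measure the spread between 3 pairs of mice, after eBayes moderated it with the spread over all rows. Those given without pair 1 rest on the remaining pairs alone, and so on less information about the spread between mice. The fit over 6 arrays with a dye term and random block used a correlation of 0.151 between arrays of a pair. It therefore treated arrays of the same mice as nearly independent, and its p-values in part measure spread between arrays. The test on 3 pair values was also run on simulated data with known changes. That simulation held no dye effect and no pair with smaller ratios, so it does not cover these features of the arrays.

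The genes and lists were chosen with earlier results of these data known. Text names the measured members, up to 3 genes per list by absolute mean ratio, the 3 nearest genes of each leading member and, after their values were seen, Pla2g2c, Pla2g5, Ptger3, Ptger4, Hpgd, Slco2a1, chromosomal neighbours and the row sets compared for pair 1. Alternatives were a fit over 6 arrays with a dye term and random block, leaving out pairs, quantile normalization, median centring, the median over single probes, 1 dye orientation and unmoderated variance.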

Additional observations from a re-analysis of the deposited data

How the results depend on the processing

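The median of the 9 genes stayed positive under all alternatives run, with 0.127 to 0.354 as lowest and highest value. Pla2g4e ranged from 1.21 to 2.01, Pla2g4d from 1.03 to 1.86 and Ptges from 0.615 to 0.988 over these alternatives. Being positive on 6 of 6 arrays, these genes could not turn sign when pairs or a dye orientation were left out, so nothing is read from their sign. Ptgs2 and Pla2g4a also stayed positive, with lowest values of 0.127 and 0.021, although Pla2g4a had -0.12 in pair 1. For Pla2g4b, only the average of its probes (0.24) was positive throughout, since 1 of its probes had -0.13 and the other 0.61. Pla2g4f had -0.06 on arrays with LynDN in Cy5 alone, and Pla2g2e and Pla2g2f turned sign in 2 of 9 alternatives each. The fit over 6 arrays and the use of single probes returned the same ratios for all these genes and could not turn a sign. The count of 4 called rows depended on the setting and the cause was not tested: 243 with 6 arrays, a dye term and a replicate block together, 79 after quantile normalization, 54 and 24 on arrays with LynDN in Cy3 or Cy5 alone, 0 without variance moderation, and 2 (without pair 2) to 1117 (without pair 1) when pairs were left out. The count of other eicosanoid genes called, 0, became 1 in that fit and 1 after quantile normalization, and lay between 0 and 9 (without pair 1) when pairs were left out. Without signal intensities, dim or saturated probes could not be told from others.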
